A study of Homo sapiens with 6 samples.

Results

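The genes described here encode the ID proteins (ID1, ID2, ID3 and ID4) and part of the bone morphogenetic protein (BMP) pathway: the ligand BMP4, the receptors BMPR1A and BMPR2, the signal transducer SMAD1 and the inhibitory SMAD6 and SMAD7. They were the rows of the deposited transcript count table that carry these symbols, summed per gene. All 10 were found among the 30717 genes of the table, on 49 transcripts, and all 10 passed the filter on low counts. RNA had been sequenced from T24 and UMUC3, established human lines of bladder carcinoma, in which circPTK2, a circle of exons spliced from PTK2, had been knocked down, and from control cells of each line. The groups were T24 circPTK2 knockdown (2 libraries, siRNA 1 and siRNA 2), T24 control (1 library), UMUC3 circPTK2 knockdown (2 libraries, siRNA 1 and siRNA 2) and UMUC3 control (1 library).

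Several properties of the libraries limit what can be compared. The titles name siRNAs where the design text names sh constructs, so the reagent is not settled. No label gives a separate culture for each library, so the spread behind every p-value is that between these samples and may be only technical. Reads of the circle and of linear PTK2 cannot be told apart in a gene sum, so the knockdown itself was not checked. Named genes received 55071837 to 60780176 counts per library. Of the urothelial and epithelial markers, KRT7, KRT8, KRT18, GATA3, PPARG and FOXA1 were present in T24, where the summed level of 14 of the 15 listed markers was 2752 to 2846 CPM (read counts scaled to a common library size) in knockdown and 2920 CPM in control libraries. In UMUC3 the sum was 178.6 to 194.5 CPM in knockdown and 199.5 CPM in control libraries, while vimentin stood at 3166 to 3270 CPM. The other mesenchymal marker, CDH2, went the other way. It was at 313.9 and 325 CPM in T24 knockdown and 187.9 CPM in T24 control libraries. In UMUC3 it was at 77.4 and 78.2 CPM in knockdown and 56.6 CPM in control libraries. UPK1A, UPK1B, UPK2, TP63, KRT5, KRT20 and CDH1 were at or near 0 in both lines. EPCAM was at 2.39 and 2.14 CPM in T24 knockdown and 2.02 CPM in T24 control libraries, with no counts in UMUC3. The sum of 7 immune markers was 7.67 to 8.49 CPM in T24 knockdown and 9.34 CPM in T24 control libraries, and 52.6 to 55.6 CPM in UMUC3 knockdown and 32.0 CPM in UMUC3 control libraries, where CD68 carried nearly all of it and PTPRC was at 0. The part of these cells or genes in the results was not tested. The sum of 11 stromal and endothelial markers was 73.9 to 76.6 CPM in T24 knockdown and 84.3 CPM in T24 control libraries, mostly CDH5, and 17.6 to 19.6 CPM in UMUC3 knockdown and 15.2 CPM in UMUC3 control libraries.

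BMP ligands bind a pair of receptor types on the cell surface, and the activated receptor phosphorylates SMAD1, SMAD5 and SMAD9, which enter the nucleus with SMAD4. Among the best known targets are the ID genes, whose products have a helix-loop-helix domain but no DNA-binding region and hold E proteins away from DNA. SMAD6 and SMAD7 are also induced by the pathway and damp it, SMAD7 acting on TGF-beta signalling as well. In epithelial cancers ID proteins are known for keeping cells proliferating and undifferentiated.

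The promoter windows of ID1, ID3 and SMAD6 are shown as examples. These genes lay above the control in every knockdown library, and their windows hold one of the motifs searched. The window of an internal SMAD7 start is shown because a transcript with many of the SMAD7 counts begins there. ID2 and BMPR2 also lay above the control by CPM in every knockdown library, and their windows are not printed. The BMPR2 window also holds one of the motifs searched, GGCGCC. The windows run from 250 bases before to 50 bases after a start, from RefSeq on GRCh38.p14. All 10 genes matched the table by symbol, with 18 windows. Capitals mark TATAA in ID1 and ID3 and GTCTAGAC in SMAD6. The SMAD7 window holds none of the motifs searched.

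ID1, chr20:31605039-31605338, plus strand: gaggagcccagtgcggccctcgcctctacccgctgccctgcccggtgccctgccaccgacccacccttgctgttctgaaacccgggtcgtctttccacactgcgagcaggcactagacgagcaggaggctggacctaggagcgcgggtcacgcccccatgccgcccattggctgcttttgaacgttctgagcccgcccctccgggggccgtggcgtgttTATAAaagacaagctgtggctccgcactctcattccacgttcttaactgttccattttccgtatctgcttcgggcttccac

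ID3, chr1:23559452-23559751, minus strand: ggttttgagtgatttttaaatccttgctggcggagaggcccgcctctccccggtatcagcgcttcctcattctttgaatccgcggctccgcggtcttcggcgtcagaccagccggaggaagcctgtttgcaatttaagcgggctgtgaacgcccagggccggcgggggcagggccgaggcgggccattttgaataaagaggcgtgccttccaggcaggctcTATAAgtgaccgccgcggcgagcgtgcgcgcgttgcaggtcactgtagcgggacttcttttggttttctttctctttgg

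SMAD6, chr15:66701986-66702285, plus strand: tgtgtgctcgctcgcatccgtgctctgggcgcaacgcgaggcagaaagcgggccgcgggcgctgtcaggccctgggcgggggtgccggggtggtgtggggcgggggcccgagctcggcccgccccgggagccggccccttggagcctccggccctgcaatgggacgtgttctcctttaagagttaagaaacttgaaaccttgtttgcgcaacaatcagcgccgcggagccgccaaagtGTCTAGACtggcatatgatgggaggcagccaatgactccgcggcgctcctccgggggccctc

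SMAD7, internal start, chr18:48942758-48943057, minus strand: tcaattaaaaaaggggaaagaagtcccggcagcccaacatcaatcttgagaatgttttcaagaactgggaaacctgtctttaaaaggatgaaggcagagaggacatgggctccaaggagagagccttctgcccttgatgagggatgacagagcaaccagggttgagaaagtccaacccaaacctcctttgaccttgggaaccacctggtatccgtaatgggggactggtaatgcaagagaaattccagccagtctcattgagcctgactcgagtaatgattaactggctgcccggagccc

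TATAA, searched on the gene's own strand with its first base 40 to 20 bases before the start, was found in the windows of ID1, ID3 and ID4, in 1 of the SMAD7 windows and in 1 of the SMAD1 windows. It was present in 3.91% of all 35116 windows of this length. The palindrome GTCTAGAC, the SMAD box, was searched on both strands, began 12 bases before the start of SMAD6 and was present in 0.202% of all windows. GGCGCC, a GC-rich element read by SMAD1 and SMAD5, occurred in windows of BMP4, BMPR2 and SMAD1 and in 19.2% of all windows. The BMP response element that joins this GC-rich element to a SMAD site was in 0.103% of all windows and in no window of these genes. TGANTCA, the AP-1 site, was in 1 SMAD1 window and in 7.71% of all windows. A match is a description of these letters and not a binding site.

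Per transcript length, ID1 was the most abundant of the 10 genes in each of the 6 libraries and ID3 the second. ID1 stood at 513.7 and 513.4 TPM, a length-corrected share of all transcripts, in T24 knockdown and 481.5 TPM in T24 control libraries, and at 842.9 and 800.1 TPM in UMUC3 knockdown and 439.1 TPM in UMUC3 control libraries. ID3 stood at 197.4 and 195.6 TPM in T24 knockdown and 82.5 TPM in T24 control libraries, and at 531.2 and 486.6 TPM in UMUC3 knockdown and 263.6 TPM in UMUC3 control libraries. In T24 the next levels were those of BMPR2 in both knockdown libraries, at 33.6 and 36.6 TPM, while in the T24 control BMPR2 (22.5 TPM) and SMAD1 (23.1 TPM) were nearly alike. In UMUC3 the next were those of ID2, with 42.8 and 52.4 TPM in knockdown and 48.9 TPM in control libraries. SMAD6 and BMPR1A in UMUC3 overlapped, at 25.5, 24.9 and 16.2 TPM against 25.1, 16.1 and 15.4 TPM, each with the knockdown libraries first. These levels use the transcript to which the authors assigned each read.

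ID3 counts were near or above 2 times the control after knockdown in each line. ID1 stood above the control by a clear margin in UMUC3 and by a small one in T24. By CPM, ID2 lay above the control and ID4 above or level with it, both at low levels in T24. At a threshold of 0.05 after Benjamini-Hochberg adjustment over the 20721 genes tested, edgeR called 0 of the 10 genes in both lines together, where it called 0.0145% of genes, 0 in T24 (0.135% of genes), 0 in UMUC3 (0.647%) and 0 for the difference between the lines (0.0579%).

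ID3 (ENSG00000117318, GRCh38 chr1:23557918-23559794, minus strand) was measured at 118.8 and 117.5 CPM in T24 knockdown and 49.14 CPM in T24 control libraries. In UMUC3 it was at 341.6 and 296.6 CPM in knockdown and 165 CPM in control libraries. All 4 knockdown libraries lay above their control, between 1.80 and 2.42 times its level. The log2 fold change was 1.10 ± 0.13 in both lines together (SE; 4 knockdown and 2 control libraries; edgeR adjusted p = 0.0876), 1.27 ± 0.13 in T24 (edgeR adjusted p = 0.0908) and 0.95 ± 0.13 in UMUC3 (edgeR adjusted p = 0.077). The difference between the lines was -0.31 ± 0.17 (UMUC3 minus T24, edgeR adjusted p = 0.521). DESeq2 called ID3 in both lines together (adjusted p = 1.09e-08), in T24 (adjusted p = 2.44e-07) and in UMUC3 (adjusted p = 0.000269). Its counts kept to the same transcripts, with at most 0.028 of them changing transcript between libraries of a line. Within the 4467 genes of this stable kind, where fewer genes share the adjustment, edgeR called it in T24 (adjusted p = 0.0472) and UMUC3 (adjusted p = 0.036) but not in both lines together (adjusted p = 0.0537); of the stable genes it called 1.1% in T24, 5.75% in UMUC3, 0.201% in both lines together and 0.246% for the difference.

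ID1 (ENSG00000125968, GRCh38 chr20:31605283-31606515, plus strand) was measured at 459.8 and 419.5 CPM in UMUC3 knockdown and 236.8 CPM in UMUC3 control libraries. In T24 it was at 258.2 and 257.0 CPM in knockdown and 237.2 CPM in control libraries. The controls of the lines were thus nearly alike and the knockdown libraries were not. The log2 fold change was 0.89 ± 0.10 in UMUC3 (SE; edgeR adjusted p = 0.0587) and 0.12 ± 0.10 in T24 (edgeR adjusted p = 0.664), and the difference between them was 0.77 ± 0.13 (unadjusted p = 0.00378, edgeR adjusted p = 0.176). DESeq2 called ID1 in UMUC3 (adjusted p = 6.04e-05), as did edgeR among the stable genes (adjusted p = 0.0258) and with no filter on low counts (adjusted p = 0.0479). At most 0.025 of its counts changed transcript. The 2-exon transcript ENST00000376112 carried 81.5 to 91.7% of them in every library.

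ID2 and ID4 were measured with less precision. ID2 (GRCh38 chr2:8678845-8684453, plus strand) was at 1.06 and 1.70 CPM in T24 knockdown and 0.673 CPM in T24 control libraries, on 63, 101 and 40 counts, and at 34.2 and 32.8 CPM in UMUC3 knockdown and 29.3 CPM in UMUC3 control libraries. By CPM all 4 knockdown libraries were above their control, but its log2 fold change was 0.41 ± 0.28 in both lines together (edgeR adjusted p = 0.629). Per transcript length, the UMUC3 knockdown pair lay on both sides of its control, at 42.8 and 52.4 TPM against 48.9 TPM. With the most abundant transcript in place of the sum, the UMUC3 log2 fold change was -1.22. The split of ID2 counts over its transcripts was uneven, and opposite in the lines. In UMUC3 ENST00000234091, whose start lies upstream, held 81.0% (exact 95% interval 79.2 to 82.7%) and 27.7% (25.7 to 29.7%) of the counts in the UMUC3 knockdown libraries and 2.69% (1.96 to 3.59%) in the control. ENST00000396290 held 5.93% (4.92 to 7.09%) and 57.8% (55.6 to 59.9%) in the knockdown libraries and 83.0% (81.1 to 84.8%) in the control. In T24, on few counts, ENST00000234091 held 0% (0 of 63 counts, which allows up to 4.76%) and 19.8% (12.5 to 28.9%) in the knockdown libraries and 26 of 40 counts (48.3 to 79.4%) in the control. ENST00000396290 held 81.0% (69.1 to 89.8%) and 66.3% (56.2 to 75.4%) in the T24 knockdown libraries and 0% (0 of 40 counts, which allows up to 7.5%) in the control. The UMUC3 knockdown libraries thus differed from each other in 0.533 of the counts, and from the control in 0.784 and 0.259. ID4 (GRCh38 chr6:19837386-19840684, plus strand) had 12 and 0 counts in T24 knockdown and 0 in T24 control libraries, where a count of 0 allows up to 0.0505 CPM. In UMUC3 it was at 1.75 and 2.71 CPM in knockdown and 0.680 CPM in control libraries, with a log2 fold change of 1.71 ± 0.76 (edgeR adjusted p = 0.355).

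**Figure D1:**
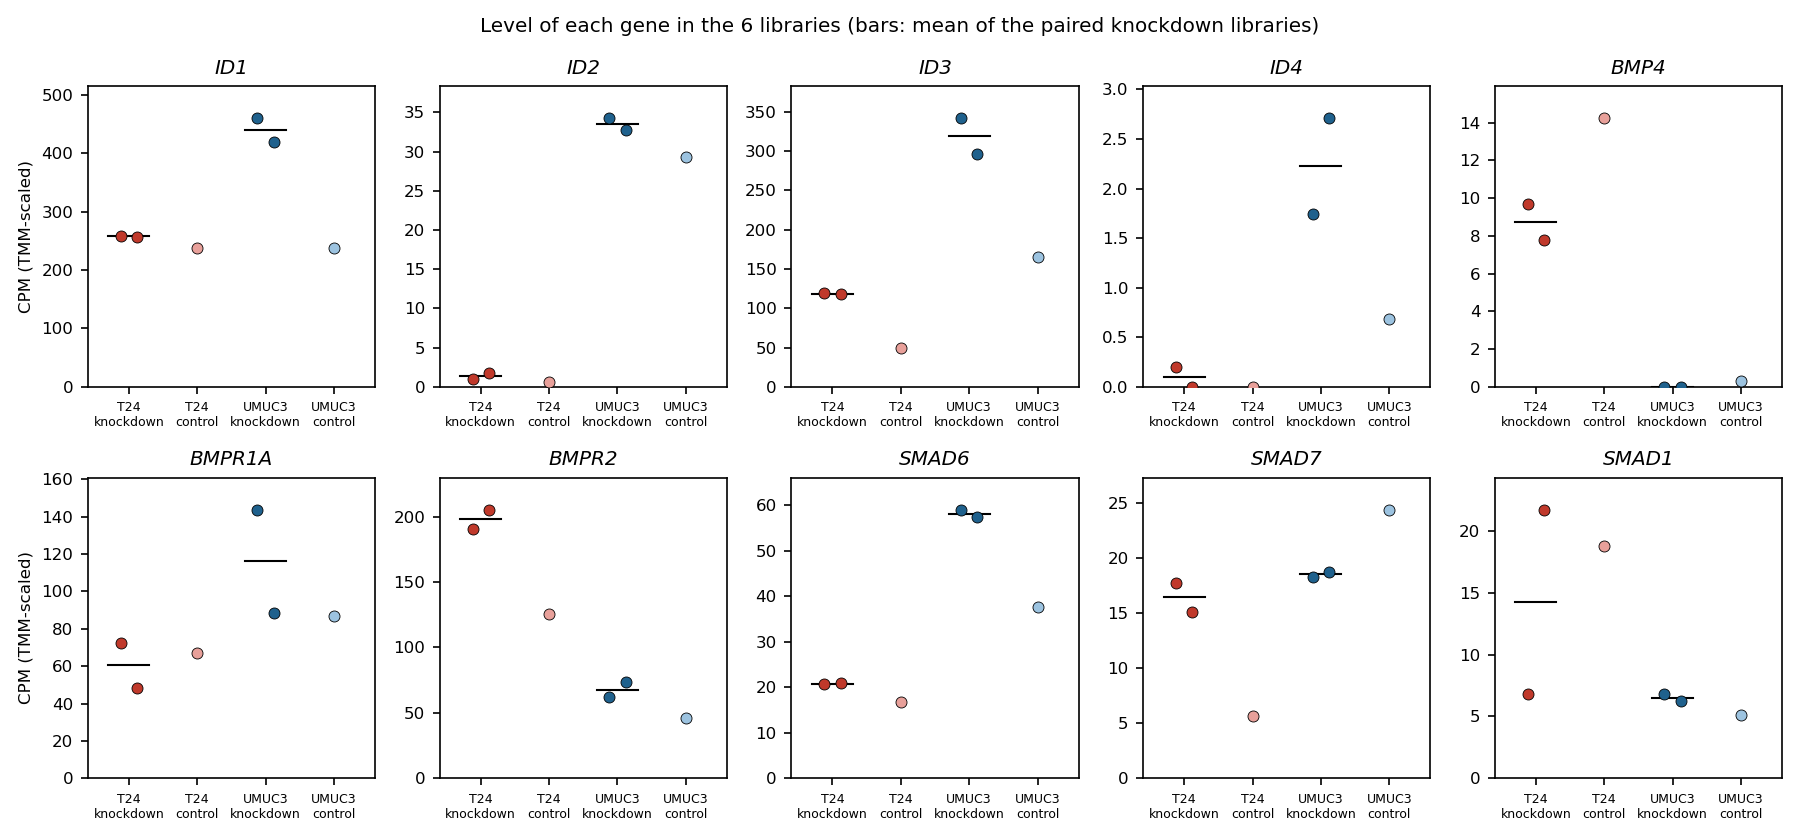
Level of the 10 genes in CPM (linear axes from 0, scaled separately) in T24 knockdown, T24 control, UMUC3 knockdown and UMUC3 control libraries; each point is a library and bars are means of paired knockdown libraries. ID3 lay at 118.8 and 117.5 CPM in T24 knockdown against 49.14 CPM in control, and SMAD7 lay above its control in T24 and below it in UMUC3.

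The ligand and the receptors came next. BMP4 (ENSG00000125378, GRCh38 chr14:53949736-53958761, minus strand), a secreted ligand of the receptors named here, was at 9.72 and 7.80 CPM in T24 knockdown and 14.2 CPM in T24 control libraries. UMUC3 had 0 counts in both knockdown libraries and 16 counts (0.286 CPM) in the control, at least 5.58-fold lower after knockdown against a floor of 3 counts per library. Every knockdown library was thus below its control. BMP4 had a log2 fold change of -0.70 ± 0.29 in T24 (edgeR adjusted p = 0.468), and edgeR gave an adjusted p of 0.268 in UMUC3, where DESeq2 gave 0.000815. The difference between the lines was also called by DESeq2 (adjusted p = 0.0103) but not by edgeR. Its T24 counts were spread over several transcripts, and 0.457 of them changed transcript.

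BMPR2 (ENSG00000204217, GRCh38 chr2:202376936-202567751, plus strand), the type II receptor, was at 190.6 and 205.3 CPM in T24 knockdown and 125.9 CPM in T24 control libraries. It was at 61.9 and 73.8 CPM in UMUC3 knockdown and 46.1 CPM in UMUC3 control libraries. The groups did not overlap in either line, and the folds were alike: log2 0.65 ± 0.16 in T24 (edgeR adjusted p = 0.249), 0.56 ± 0.16 in UMUC3 (edgeR adjusted p = 0.212) and -0.09 ± 0.22 for the difference (edgeR adjusted p = 0.932). In both lines together it was 0.61 ± 0.13 (edgeR adjusted p = 0.221), which DESeq2 called (adjusted p = 0.00328). ENST00000374580, which covers 13 exons, held 97.3 to 99.99% of its counts. BMPR1A (ENSG00000107779, GRCh38 chr10:86756601-86932838, plus strand), a type I receptor, was at 72.6 and 48.1 CPM in T24 knockdown and 67.3 CPM in T24 control libraries, and at 143.7 and 88.3 CPM in UMUC3 knockdown and 87.1 CPM in UMUC3 control libraries. The library titled siRNA 1 was the higher of each pair, and the T24 pair lay on both sides of its control (log2 0.12 ± 0.29 in both lines together, edgeR adjusted p = 0.908).

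Of the SMAD genes, SMAD6 (ENSG00000137834, GRCh38 chr15:66702228-66782848, plus strand), the inhibitor most specific to BMP signalling, was at 20.7 and 20.9 CPM in T24 knockdown and 16.7 CPM in T24 control libraries. It was at 59.0 and 57.4 CPM in UMUC3 knockdown and 37.7 CPM in UMUC3 control libraries. Each knockdown pair was tight and above its control. The log2 fold change was 0.32 ± 0.15 in T24 (edgeR adjusted p = 0.487), 0.63 ± 0.15 in UMUC3 (edgeR adjusted p = 0.171) and 0.47 ± 0.15 in both lines together (edgeR adjusted p = 0.359). DESeq2 called it in both lines together (adjusted p = 0.0275) and in UMUC3 (adjusted p = 0.0204). SMAD6 counts fell mainly on the coding ENST00000288840, with 713 and 819 counts in T24 knockdown and 520 in T24 control libraries, and on ENST00000612349, a 1-exon transcript of 5198 bases annotated as a processed transcript, with 516 and 425 counts in T24 knockdown and 474 in T24 control libraries. The log2 fold change in T24 was 0.54 ± 0.35 for ENST00000288840 (edgeR adjusted p = 0.852) and -0.03 ± 0.33 for ENST00000612349 (edgeR adjusted p = 1). With the most abundant transcript in place of the SMAD6 sum, the T24 value turned to -0.02. SMAD1 (ENSG00000170365, GRCh38 chr4:145481194-145558079, plus strand), the transducer, was at 6.81 and 21.7 CPM in T24 knockdown and 18.7 CPM in T24 control libraries, so that the T24 pair differed more from each other than from the control. In UMUC3 it was at 6.79 and 6.21 CPM in knockdown and 5.09 CPM in control libraries. Over both lines SMAD1 had a log2 fold change of -0.07 ± 0.49 (edgeR adjusted p = 0.973), and of 0.29 without the T24 library of siRNA 1.

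**Figure D2:**
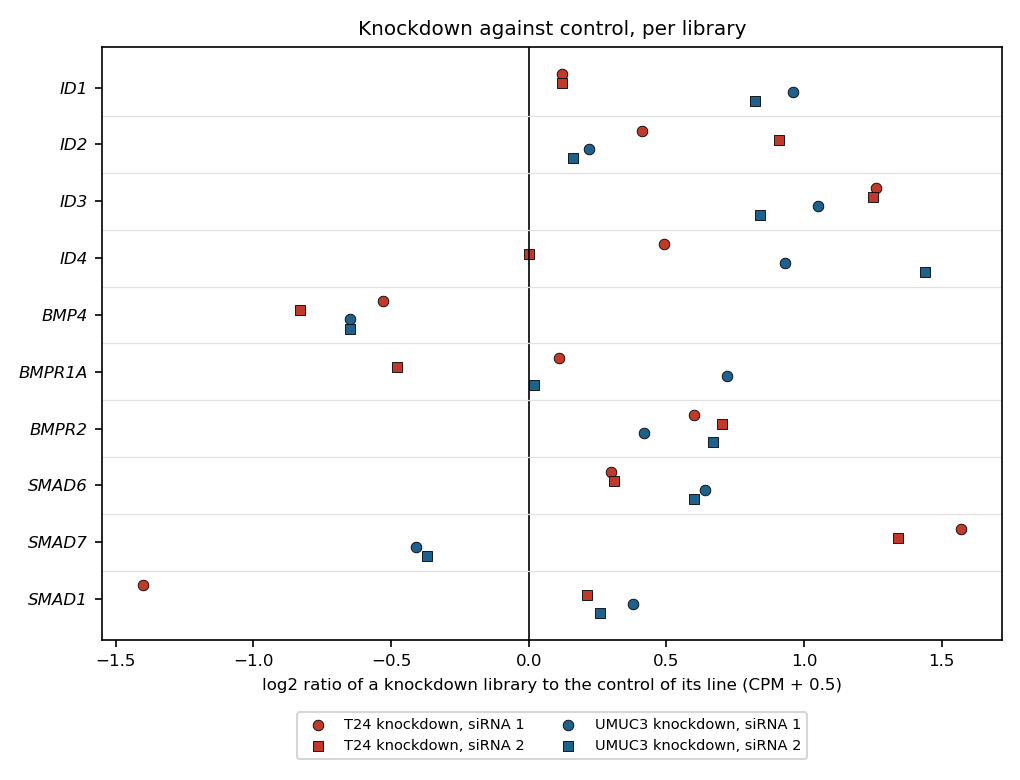
Log2 ratio of each of the 4 knockdown libraries to the control of its line, with 0.5 CPM added, for the 10 genes; circles are siRNA 1, squares siRNA 2, red T24 and blue UMUC3, and the vertical line is no difference. ID1, ID2, ID3, BMPR2 and SMAD6 lay to the right of the line in every library, BMP4 to the left, and SMAD7 on opposite sides in the lines.

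SMAD7 (ENSG00000101665, GRCh38 chr18:48919853-48952052, minus strand), which inhibits receptors of both the BMP and TGF-beta branches, was the one of the 10 genes whose CPM lay on opposite sides of the control in the lines. It was at 17.8 and 15.1 CPM in T24 knockdown and 5.67 CPM in T24 control libraries. In UMUC3 it was at 18.3 and 18.8 CPM in knockdown and 24.4 CPM in control libraries. After knockdown the lines were thus at nearly the same level, and only the controls were far apart. Per transcript length, SMAD7 lay above the control in both lines. It was at 14.9 and 12.8 TPM in T24 knockdown and 3.57 TPM in T24 control libraries. In UMUC3 it was at 14.5 and 15.3 TPM in knockdown and 11.5 TPM in control libraries. The opposite sides thus hold for CPM and not for TPM, which depend on the transcript assigned to each read. The log2 fold change was 1.54 ± 0.23 in T24 (edgeR adjusted p = 0.128; DESeq2 adjusted p = 3.42e-06) and -0.40 ± 0.20 in UMUC3 (edgeR adjusted p = 0.418). The difference between the lines, -1.93 ± 0.30, had an unadjusted p of 0.00252 and an edgeR adjusted p of 0.162, while DESeq2 called it (-1.95, adjusted p = 4.53e-05).

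Beneath the sums, the share of SMAD7 counts by transcript differed from the control in the same direction in both lines. ENST00000545051 (chr18:48920027-48942807, 2 exons, annotated as a retained intron, with no coding region) had 620 and 596 counts in T24 knockdown and 63 in T24 control libraries. In UMUC3 it had 641 and 716 counts in knockdown and 89 in control libraries. Its share of SMAD7 counts was 58.5% (exact 95% interval 55.5 to 61.5%) and 66.3% (63.1 to 69.4%) in T24 knockdown and 18.7% (14.7 to 23.3%) in T24 control libraries, and 62.4% (59.4 to 65.4%) and 62.6% (59.8 to 65.5%) in UMUC3 knockdown and 6.52% (5.27 to 7.97%) in UMUC3 control libraries. This transcript begins at the internal start whose promoter window is given above. The authors' software assigned reads to transcripts that share sequence, so these shares depend on that assignment, which was not tested here for lack of reads.

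The full coding transcript of SMAD7, ENST00000262158 (chr18:48919853-48952052, 4 exons), had 379 and 258 counts in T24 knockdown and 265 in T24 control libraries, and 318 and 360 counts in UMUC3 knockdown and 1269 in UMUC3 control libraries. A shorter coding model, ENST00000589634, had 39 and 31 counts in T24 knockdown and 50 and 51 counts in UMUC3 knockdown libraries, and 0 in both controls, which allows shares of up to 0.89% in T24 and 0.22% in UMUC3. So the coding transcript was level in T24 and low after knockdown in UMUC3, while the retained intron model was high after knockdown in both. Fitted over 76126 transcripts, the log2 fold change of ENST00000545051 was 3.08 ± 0.40 in both lines together (unadjusted p = 0.000673, edgeR adjusted p = 0.385), where 0.0118% of transcripts were called, against 0% in T24, 0.00394% in UMUC3 and 0% for the difference. ENST00000262158 had -1.91 ± 0.46 in UMUC3 (edgeR adjusted p = 0.509) and 0.25 ± 0.49 in T24 (edgeR adjusted p = 0.977). No tested transcript of the 10 genes, 28 in number, passed in a knockdown comparison. Between libraries of a line, up to 0.512 of SMAD7 counts were on other transcripts in T24 and up to 0.621 in UMUC3. A shift of at least 0.5 was seen in 26% of the 14437 genes with several transcripts in T24 and in 26.3% in UMUC3. After SMAD7's values were seen, a further rule was chosen. It asked for a shift of at least 0.4 in every knockdown library, with the paired libraries within 0.1 of each other. Of the genes with several transcripts 0.783% qualified, and of the 10 genes SMAD7 alone. Because the rule followed SMAD7's values, that SMAD7 qualified was fixed in advance, and the share does not measure how unusual it was.

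**Figure D3:**
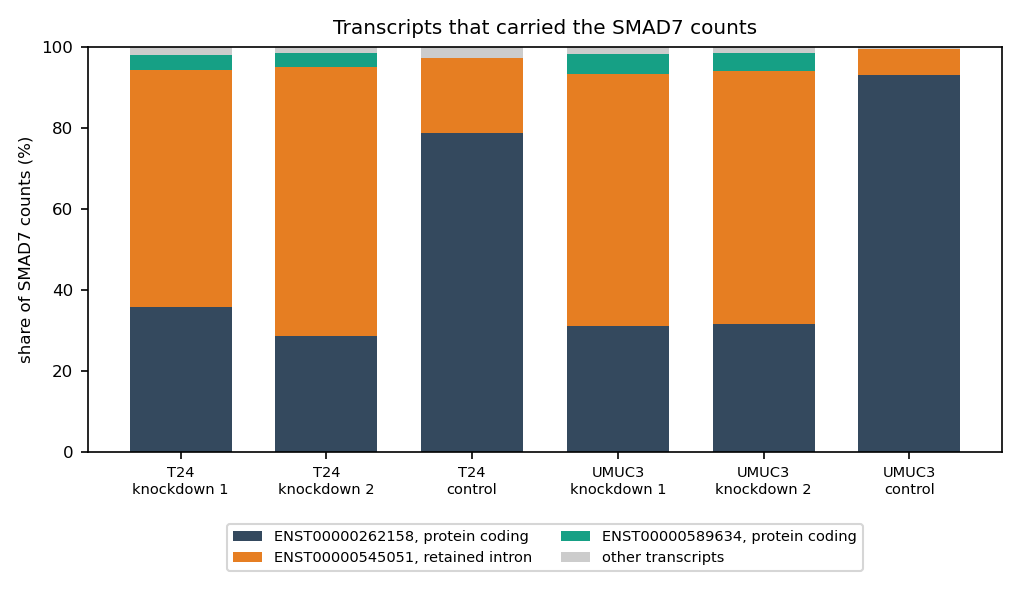
Share of SMAD7 counts (percent, from 0 to 100) on ENST00000262158, ENST00000545051, ENST00000589634 and other transcripts in the 6 libraries. ENST00000545051 took 58.5 to 66.3% in the knockdown libraries, against 18.7% in the T24 control and 6.52% in the UMUC3 control. Reads were assigned to transcripts by the authors, and that assignment was not tested.

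At an unadjusted edgeR p under 0.05 there were 5 of the 10 genes in both lines together (11.6% of all genes), 3 in T24 (12.5%), 5 in UMUC3 (16.8%) and 2 for the difference (13.5%). DESeq2 with adjustment called 3 of them in both lines together (4.73% of all genes), 2 in T24 (4.73%), 4 in UMUC3 (8.29%) and 2 for the difference (5.4%). In T24, 6 of the 10 genes had both knockdown libraries above the control, as 34.7% of all genes did, and 1 had both below it (37.3%). In UMUC3, 8 had both above (35.6%) and 2 both below (37.1%). ID1, ID2, ID3, BMPR2 and SMAD6 lay above the control in all 4 knockdown libraries, which 13.3% of all genes did, and BMP4 lay below it in all 4, which 15.1% did. SMAD7 lay on opposite sides in the lines, as did 24.4% of all genes. All these sides are by CPM. Per transcript length, SMAD7 lay above the control in all 4 knockdown libraries, and ID2 did not. BMPR1A and SMAD1 then lay below the control in T24 and above it in UMUC3, in part by small margins. BMPR1A was at 14.06 and 9.84 TPM in T24 knockdown and 14.21 TPM in T24 control libraries. SMAD1 was at 7.59 and 22.84 TPM in T24 knockdown and 23.08 TPM in T24 control libraries. The mitochondrial share of counts, often read as a measure of RNA quality, was 3.36 and 3.5% in T24 knockdown and 2.68% in T24 control libraries. In UMUC3 it was 4.26 and 4.62% in knockdown and 4.62% in control libraries. MT-CO3 and MT-ATP6 were at 0.131 to 0.161 CPM in every library. MT-ATP8 was at 505.6 CPM in the UMUC3 control and at 0.03285 to 0.03566 CPM in the other libraries. The share is thus an incomplete measure, and its part in these results was not tested.

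Between the lines, T24 had less ID2, ID3, ID4 and SMAD6 RNA than UMUC3 and more BMP4 and BMPR2 RNA. With 3 libraries per line and knockdown as a term, edgeR called these 6 of the 10 genes, where it called 40.2% of all genes, 4 of them lower (18.9% of all genes) and 2 higher (21.3%). Of the 28 tested transcripts of the 10 genes it called 3, where it called 2.92% of all transcripts. In bulk RNA, fewer cells with a transcript and less transcript per cell cannot be told apart. ID2 averaged 1.14 ± 0.518 CPM in T24 and 32.1 ± 2.53 CPM in UMUC3 (SD, n = 3 each; log2 -4.83 ± 0.29, edgeR adjusted p = 0.000184). ID3 averaged 95.1 ± 39.8 CPM in T24 and 267.7 ± 91.8 CPM in UMUC3 (log2 -1.54 ± 0.12, edgeR adjusted p = 0.000497), with much of each SD from the knockdown. ID4 had a log2 fold change of -4.64 ± 0.78 (edgeR adjusted p = 0.00305) on 12 counts in all of T24, and ranged from -9.41 without the T24 library of siRNA 1 to -3.84 without that of siRNA 2. SMAD6 averaged 19.5 ± 2.37 CPM in T24 and 51.4 ± 11.9 CPM in UMUC3 (log2 -1.38 ± 0.15, edgeR adjusted p = 0.00127). By transcript, the coding ENST00000288840 had -0.69 ± 0.27 (edgeR adjusted p = 0.214). ENST00000612349, which has no coding region, had -1.86 ± 0.29 (edgeR adjusted p = 0.051). The latter held 59.03 and 61.36% of SMAD6 counts in UMUC3 knockdown and 62.55% in UMUC3 control libraries.

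BMP4 averaged 10.6 ± 3.3 CPM in T24 and 0.0955 ± 0.165 CPM in UMUC3 (log2 6.84 ± 0.61, edgeR adjusted p = 0.000227). All UMUC3 counts of BMP4 came from the control library, and the log2 fold change was 12.01 without it, 12 without the T24 control and 6.38 to 6.90 without 1 of the knockdown libraries. Without either control, the line difference rests on the knockdown libraries alone, for BMP4 and for ID1 below. BMPR2 averaged 173.9 ± 42.2 CPM in T24 and 60.6 ± 13.9 CPM in UMUC3 (log2 1.51 ± 0.12, edgeR adjusted p = 0.000529). ID1 (-0.52 ± 0.18, edgeR adjusted p = 0.0633), BMPR1A (-0.75 ± 0.27, adjusted p = 0.0723), SMAD7 (-0.77 ± 0.42, adjusted p = 0.196) and SMAD1 (1.38 ± 0.47, adjusted p = 0.0625) did not pass. ID1 passed in the knockdown libraries alone (-0.77, edgeR adjusted p = 0.0048) and without either control library (-0.77, adjusted p = 0.00497 without T24 control and 0.00472 without UMUC3 control). SMAD1 passed without the T24 library of siRNA 1 (1.80, edgeR adjusted p = 0.00725), and SMAD7 had -2.11 in the controls alone (adjusted p = 0.0116). The controls alone are 1 library against 1, with the spread taken from the knockdown pairs, so that value has no replicate check, nor has that of ID4 there (-8.32, edgeR adjusted p = 0.133). With the most abundant transcript in place of the gene sum, ID2 (-4.58, edgeR adjusted p = 0.104) and BMP4 (10.87, adjusted p = 0.0586) no longer passed. All 3 T24 libraries lay above all 3 UMUC3 libraries for BMP4, BMPR2 and SMAD1, as for 27.2% of genes, and below them for ID2, ID3, ID4, BMPR1A, SMAD6 and SMAD7, as for 25.1% of genes.

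**Figure D4:**
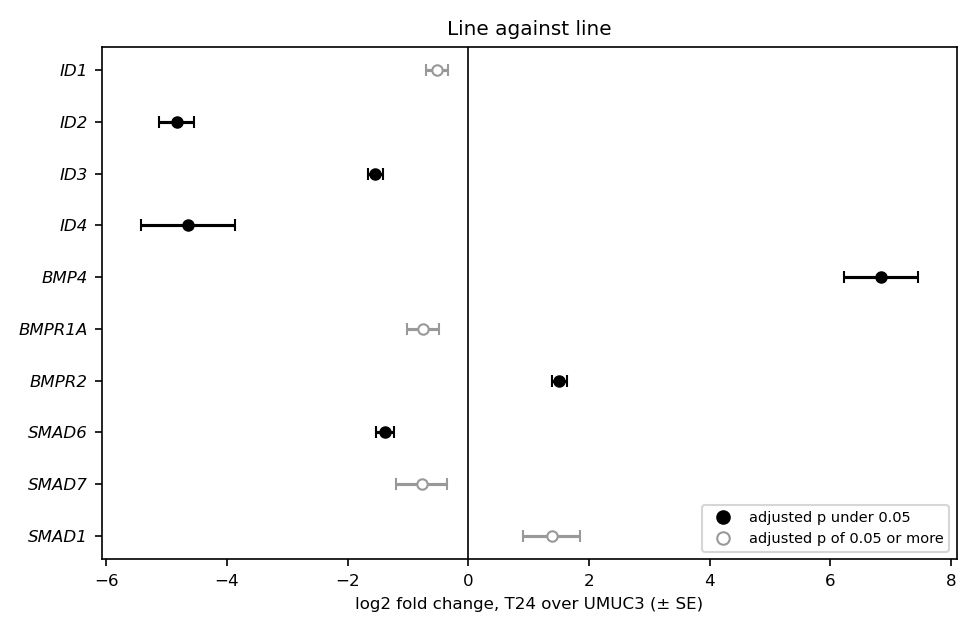
Log2 fold change of T24 over UMUC3 with its SE for the 10 genes, from the edgeR fit over 3 libraries per line; filled points passed at an adjusted p under 0.05. BMP4 stood at 6.84 and BMPR2 at 1.51, while ID2, ID3, ID4 and SMAD6 lay between -4.83 and -1.38.

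The wider pathway was read from lists of ligands, receptors, antagonists, SMADs, cofactors, response genes, bHLH proteins and CDK inhibitors. After knockdown 2 of their genes differed from the control, both in UMUC3. SKI, a corepressor that binds SMAD complexes, rose to 160.1 and 171.2 CPM in UMUC3 knockdown libraries against 52.7 CPM in the control (log2 1.65 ± 0.11, edgeR adjusted p = 0.0421). It was the 1 of 21 tested SMAD cofactors, corepressors and ubiquitin ligases called higher, and none was called lower, where 0.647% of all genes were called in UMUC3. In T24 SKI was at 262.2 and 266.5 CPM in knockdown and 153.1 CPM in control libraries (log2 0.79 ± 0.10, edgeR adjusted p = 0.112). CDKN1A, the CDK inhibitor p21 whose gene E proteins activate and ID proteins thereby restrain, fell to 95.5 and 80.8 CPM in UMUC3 knockdown libraries against 444 CPM in the control (log2 -2.33 ± 0.15, edgeR adjusted p = 0.0421). It was the 1 of 5 tested CDK inhibitors called, against the same 0.647% of all genes. In T24 CDKN1A was at 57.0 and 50.5 CPM in knockdown and 91.7 CPM in control libraries (log2 -0.77 ± 0.15, edgeR adjusted p = 0.194). Leaving out any 1 of the 4 knockdown libraries left edgeR with 0 genes called in UMUC3, these included, and 2802 to 2949 genes at an unadjusted p under 0.05.

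No other listed gene passed in a knockdown comparison. SMURF2, a ubiquitin ligase that targets SMADs and receptors, was at 105.4 and 113.9 CPM in T24 knockdown and 176.9 CPM in T24 control libraries, and at 56.2 and 69.8 CPM in UMUC3 knockdown and 148.6 CPM in UMUC3 control libraries (log2 -0.97 ± 0.17 in both lines together, edgeR adjusted p = 0.167). SMAD5, the transducer next to SMAD1, was at 56.4 and 67.5 CPM in T24 knockdown and 113.3 CPM in T24 control libraries, and at 97.4 and 63.8 CPM in UMUC3 knockdown and 177.4 CPM in UMUC3 control libraries (-1.01 ± 0.20, edgeR adjusted p = 0.195). Both lay below the control in every knockdown library. Of the 3 listed E proteins that ID proteins bind, TCF3 was at 132.8 and 95.3 CPM in UMUC3 knockdown and 44.0 CPM in UMUC3 control libraries (1.37 ± 0.25, edgeR adjusted p = 0.114), and at 86.5 and 90.2 CPM in T24 knockdown and 74.2 CPM in T24 control libraries (0.25 ± 0.23, edgeR adjusted p = 0.709). TCF4 had the other sign in UMUC3, at 14.4 and 17.0 CPM in knockdown and 24.3 CPM in control libraries (-0.63 ± 0.23, edgeR adjusted p = 0.301). Of the 22 tested BMP response genes, 17 had a positive log2 fold change in both lines together, with a median of 0.43. Of all genes 50.5% did, with a median of 0.01. The list includes the ID genes, SMAD6 and SMAD7, all positive, and the set was not tested. In T24 15 were positive (median 0.37, 49.2% of all genes) and in UMUC3 15 (median 0.22, 49.4%). In both lines together, of the 11 tested receptors and coreceptors 6 were positive (median 0.12) and of the 17 antagonists and modulators 12 (median 0.18). Of the 8 SMADs 3 were positive (median -0.10), of the 11 ligands 5 (median -0.36) and of the 21 cofactors, corepressors and ubiquitin ligases 7 (median -0.08).

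The counts of listed genes called between the lines stand against 21.3% of all genes called higher and 18.9% called lower in T24. Of 11 tested ligands, 4 were higher and 3 lower in T24. INHBA, a subunit of activin, was at 75.5, 76.1 and 33.9 CPM in T24 and at 0.214, 0 and 0.251 CPM in UMUC3 (log2 8.62 ± 0.53, edgeR adjusted p = 0.000113), each with the control last. GDF15, a stress-induced cytokine, was at 43.6, 40.7 and 61.4 CPM in T24 and at 0.285, 0.591 and 0.501 CPM in UMUC3 (6.69 ± 0.27, edgeR adjusted p = 5.46e-05). BMP7 went the other way, at 0, 0.0673 and 0 CPM in T24 and 11.9, 11.1 and 11.1 CPM in UMUC3 (-8.86 ± 0.57, edgeR adjusted p = 4.58e-05). BMP6 had no counts in T24 and was at 2.69, 34.2 and 49.6 CPM in UMUC3. Its UMUC3 mean of 28.8 CPM was at least 572-fold above the T24 floor of 0.0505 CPM. That bound does not hold for the UMUC3 library at 2.69 CPM. BMP4 RNA was thus found mainly in T24, and BMP6 and BMP7 RNA mainly in UMUC3. Other ligands were counted in both lines. BMP8B was at 1.01, 0.673 and 1.06 CPM in T24 and 3.42, 3.71 and 3.06 CPM in UMUC3. GDF11 did not pass (0.20 ± 0.13, edgeR adjusted p = 0.279).

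Of 17 tested antagonists and modulators, 8 were higher in T24 and 1, CHRD, lower. FST, follistatin, which binds activins, was at 132.3, 127.6 and 85.6 CPM in T24 and had no counts in UMUC3. Its T24 mean was at least 2210-fold above the UMUC3 floor. FSTL1 was at 852, 877.4 and 638.2 CPM in T24 and 147.5, 156.5 and 146.1 CPM in UMUC3 (log2 2.38 ± 0.11, edgeR adjusted p = 9.47e-05). Of 11 receptors and coreceptors 3 were higher, BMPR2, ACVR2A and ENG, and 2 lower, ACVR1 and ACVR2B, a share near that of all genes. Of 8 SMADs none was higher and 3 were lower, SMAD6, SMAD3 (-0.46 ± 0.09, edgeR adjusted p = 0.00946) and SMAD9 (-0.89 ± 0.26, edgeR adjusted p = 0.0424), again a share near the 40.2% of all genes called in either direction. Of 22 response genes 5 were higher and 9 lower, and the higher ones included GATA3 (6.34 ± 0.27, edgeR adjusted p = 6.42e-05), a urothelial factor, HES1 and SNAI2. Of 5 CDK inhibitors CDKN2A and CDKN2B were higher in T24, and CDKN1A and CDKN1B lower. CDKN2A and CDKN2B had no counts in UMUC3, and their T24 means were at least 2340-fold and 626-fold above the UMUC3 floor.

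The genes whose knockdown pattern was most like that of an ID gene were found by distance over the 4 log2 ratios, among 11138 genes of at least 5 CPM. For ID3 they were ZNF91 (distance 0.236), F3 (0.241) and COL4A6 (0.263), where the median distance of all genes was 2.36. For ID1 they were CAMLG (0.0761), WBP4 (0.0792) and ZBED4 (0.0870), with a median of 1.51, and for ID2 OGFOD3 (0.117), TUSC3 (0.172) and PCF11 (0.176). For ID4, which stood at 0 in a T24 library, they were ATAD2B (0.235), WDR24 (0.289) and TRPS1 (0.295).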

How the data were processed

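The authors deposited raw read counts per transcript for 136953 transcripts, not normalised. The submitters' processing notes name hg38 with HISAT2 2.1.0, StringTie 1.3.3b and FastQC 0.11.5, in roles not given. Strand and poly(A) selection are not given in the sources used here, so overlapping and antisense genes cannot be told apart. Transcripts without a gene, 14.86 to 16.1% of counts, were left out, and the rest were summed per gene. A gene entered the tests with 10 or more counts in 2 or more libraries and 30 or more in all. The main test was edgeR 4.0.16 (TMM factors, robust quasi-likelihood F test; R 4.3.3), and p-values were adjusted by Benjamini-Hochberg. A model of line plus knockdown, leaving 3 residual degrees of freedom, gave both lines together and T24 against UMUC3. A 4-group model, leaving 2, gave each line and the difference; a single control is there taken to vary as the knockdown pairs do. An edgeR SE is the size of the log2 fold change over the square root of the F statistic. With 2 or 3 residual degrees of freedom, an interval of 2 SE would be too narrow. DESeq2 1.42.0 was an alternative. CPM use TMM factors, TPM use GENCODE 29 transcript lengths, and coordinates are from that release. Intervals and floors cover counting error only. Paired knockdown libraries differed beyond sampling noise (chi-square per degree of freedom 112.3 in T24 and 108.2 in UMUC3). The edgeR code was tried on simulated counts with little spread and large changes in well-counted genes. That trial cannot show how often the tests err on these libraries. From each list the text names up to 3 called genes per direction with the smallest p, or, with none called in a comparison, up to 2 by unadjusted p. The genes and lists were chosen with earlier results of these data known. In T24 the siRNA number of the title and that of the data column are swapped, and titles were followed.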

Additional observations from a re-analysis of the deposited data

Results flagged for a closer look

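SMAD7 is listed because every T24 knockdown library lay above and every UMUC3 knockdown library below its control, with an unadjusted p under 0.05 for the difference (UMUC3 minus T24, log2 -1.93, edgeR adjusted p = 0.162). For the same reason 6 other genes are listed, and none of the 7 passed edgeR's adjustment over all genes. Only the BMP response genes and the extracellular antagonists and modulators were searched by this rule. Some genes of the other lists, BMP2, GDF7 and TCF21 among them, met it too. DESeq2 called the SMAD7 difference (-1.95, adjusted p = 4.53e-05). The difference was 1.82 for NOG (adjusted p = 0.176), -1.90 for MSX2 (0.207), -0.80 for CRIM1 (0.162), 1.57 for FSTL3 (0.227), 0.82 for TWSG1 (0.254) and -0.89 for BMP1 (0.269), all from edgeR. NOG, which binds BMPs outside the cell, was at 27.6 and 25.7 CPM in T24 knockdown and 41.3 CPM in T24 control libraries, and at 38.9 and 30.4 CPM in UMUC3 knockdown and 15.2 CPM in UMUC3 control libraries. Opposite sides were seen in 24.4% of all genes. Sides are by CPM, and per transcript length SMAD7 lay above the control in every knockdown library.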

How the results depend on the processing

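Of 755 repeats of the log2 fold changes of the 10 genes, 717 kept their direction and their side of the threshold, 22 newly passed it, 3 no longer passed and 13 changed sign. Counts of genes called in both lines together, T24, UMUC3 and the difference were 3, 28, 134 and 12. They were 981, 980, 1717 and 1119 with DESeq2 (3, 2, 4 and 2 of the 10 genes), and 8, 43, 224 and 35 with no filter (1 of the 10 in UMUC3). With composition-stable genes, where fewer genes were tested, they were 9, 49 and 257 (1 of the 10 in T24, 2 in UMUC3), and with the most abundant transcript per gene 0, 11, 16 and 22. The earlier edgeR method gave 2 in T24, 13 in UMUC3 and 5 for the difference, median-of-ratios factors gave 5 and at least 5 CPM gave 6 for the difference. Leaving out 1 library gave 0 to 135 in both lines together (135 without the T24 control, 25 without the UMUC3 control, 0 without any 1 knockdown library), 0 to 25 in T24, 0 to 135 in UMUC3 and 0 for the difference. For T24 against UMUC3, 8329 genes became 5100 with at least 5 CPM, 2302 among stable genes (3 of the 10), 4757 with the most abundant transcript and 5049 in the controls alone. Signs changed with the most abundant transcript for SMAD7 in both lines together (-1.02), SMAD6 in T24 (-0.02), ID2 in UMUC3 (-1.22) and BMP4 for the difference (1.02). Leaving out 1 library changed signs for SMAD7 (-0.39 without the T24 control to 1.54 without the UMUC3 control), SMAD1 (-0.50 to 0.36, with 0.29 without T24 siRNA 1) and BMPR1A (-0.16 to 0.42, with -0.08 without UMUC3 siRNA 1) in both lines together. It did so for SMAD1 (-1.46 to 0.21) and BMPR1A (-0.48 to 0.11) in T24, and for ID4 (-4.86 to 1.72) and BMPR2 (-0.22 to 0.03) for the difference. Without a line's control, the fit of both lines together took the effect from the other line alone, also in the counts above. The SMAD7 values without a control are thus those of UMUC3 and of T24 alone. The cause of the other sign changes was not tested.

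The siRNA numbers did not pair the samples: the deviations of siRNA 1 and 2 in the lines had a correlation of 0.013 over 11139 genes. With the number as a replicate block, edgeR called 0 genes in each knockdown comparison, with 1901 at an unadjusted p under 0.05 in both lines together by titles and 1780 by column names. ID3 then stood at 1.10 (adjusted p = 0.285 and 0.319), and with the titles BMPR1A passed between the lines (-0.74, edgeR adjusted p = 0.0343).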
